A study of Homo sapiens with 4 samples.

Results

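The Notch receptors NOTCH1, NOTCH2 and NOTCH3, their ligands JAG1, JAG2 and DLL1, the fringe enzyme LFNG and the target genes HES1, HES2 and HEY1 were examined in Ca9-22 cells after knockdown of KPNA4. The 10 genes were given by name, and their probes were found through the transcript accession that the array files hold for each probe. They had 13 probes of 34127 on the array, and all 10 genes were among the 19550 genes tested. Ca9-22 is a long-established human cell line that was derived from a gingival squamous carcinoma. The 4 samples were total RNA from 2 control cultures (negative control) and 2 KPNA4 knockdown cultures, each hybridized to its own 1-color Agilent array, with all 4 arrays on the same slide and in the same scan. The labels give the harvest as 3 days after siRNA transfection, whereas the methods of the study describe short hairpin RNA in lentiviral particles, and no further treatment or allele is given for any group. Everything below is therefore from 1 cell line, with 2 arrays per group, which limits the precision.

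Notch signaling passes between touching cells. A Jagged or Delta-like ligand on one cell pulls on a Notch receptor of its neighbor, the receptor is cut by an ADAM protease and then by γ-secretase, and the freed intracellular domain enters the nucleus and joins the DNA-binding protein RBPJ and a Mastermind coactivator. This complex turns on HES and HEY genes, which encode repressors of the basic helix-loop-helix family. In stratified squamous epithelium, Notch activity is known for driving cells out of the basal layer into differentiation, and NOTCH1 is often mutated in head and neck squamous cell carcinoma. Fringe enzymes such as LFNG add a sugar to the receptor and shift its preference between Delta-like and Jagged ligands.

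Levels below are log2 processed signals, with the array's own 75th percentile set to 0. A log2 difference is the knockdown mean minus the control mean, and its error is the standard error (SE). The percentile was 1466 and 1382 in the controls and 1938 and 2096 after knockdown, so the knockdown arrays were brighter before scaling. The median log2 fold change of all genes tested was -0.10 with this scaling and 0.40 without scaling, and its effect on each member is given where it turns a sign or ends a call. The Pearson correlation across genes was 0.998 within each group and 0.979 between control 1 and KPNA4 knockdown 1. KPNA4 itself was at 4.02 in both controls and at 2.36 and 2.05 after knockdown, a log2 difference of -1.82 ± 0.12 (SE, limma adjusted p = 0.00184). All 12 markers of squamous epithelium that were looked at were well above background on every array. Of 6 markers each, 4 to 5 of fibroblasts, 3 of endothelium and 4 to 5 of leukocytes were also well above background, while the endothelial markers PECAM1, KDR and TEK were too dim to be tested. The summed scaled signal of the epithelial markers was 280.3 to 319 on an array, against 0.143 to 0.345 for the fibroblast list, 0.0901 to 0.165 for the endothelial list and 4.65 to 6.38 for the leukocyte list. The fibroblast sum was higher in the knockdown (0.330 and 0.345) than in the controls (0.143 and 0.147), and the endothelial sum was lower (0.0975 and 0.0901 against 0.150 and 0.165). COL1A1 (log2 fold change 1.62), COL1A2 (1.24) and PDGFRB (0.56) were called higher (limma adjusted p under 0.05). PDGFRB was well above background on only 1 control array and entered the test only through the knockdown arrays, where it is high. LUM was called lower and was not well above background on either knockdown array, so it entered the test only through the controls, where it is high. DCN (-0.10) was not called, and COL3A1 was too dim to be tested. The endothelial markers tested, CDH5 (-0.48), VWF (-0.54) and ESAM (-1.22), were all called lower. The leukocyte sum was higher in the knockdown (6.38 and 6.05 against 4.65 and 4.69), and the epithelial sum was lower (290 and 280.3 against 319 and 318). The sums are on the linear scale, so bright genes weigh most. Of epithelial markers, SFN (-0.27), EPCAM (-0.51) and ITGB4 (-1.15) were called lower. KRT5, KRT14, KRT6A, KRT17, CDH1, PERP and DSG3 were called higher, by 0.92 to 6.94, and TP63 and LAMB3 were not called. Of leukocyte markers, CD14 was called higher (0.54). CD3E (-1.48), CD68 (-1.37) and PTPRC (-0.55) were called lower, and ITGAM was not called. CD3E was well above background on only 1 knockdown array and entered the test only through the controls. The calls of PDGFRB, LUM and CD3E therefore add no support. The part of other cell types in the results was not tested. The Y-linked gene RPS4Y1, chosen after its values were seen, failed the background criterion in both control cultures and rose at least 43.4-fold after knockdown, so a difference between the cultures other than KPNA4 cannot be told apart from the knockdown in any value below.

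Promoters of 3 HES genes are shown here, HES1 and HES5 because they carry the letters that RBPJ reads and HES2 for comparison. Each sequence is the 150 bases before the annotated start of the gene, 5′ to 3′ on the gene's strand, from RefSeq on GRCh38.p14, and capitals mark GTGGGAA or its inner TGGGAA. HES1 lies at chr3:194135998-194136147 on the plus strand, HES5 at chr1:2530264-2530413 on the minus strand and HES2 at chr1:6419920-6420069 on the minus strand.
HES1: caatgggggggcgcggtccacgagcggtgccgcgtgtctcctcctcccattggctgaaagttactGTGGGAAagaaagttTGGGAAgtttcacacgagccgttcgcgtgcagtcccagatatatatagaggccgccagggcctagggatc
HES5: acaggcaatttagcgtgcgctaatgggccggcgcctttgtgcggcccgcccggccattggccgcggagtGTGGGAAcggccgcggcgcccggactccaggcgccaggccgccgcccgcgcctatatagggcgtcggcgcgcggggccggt
HES2: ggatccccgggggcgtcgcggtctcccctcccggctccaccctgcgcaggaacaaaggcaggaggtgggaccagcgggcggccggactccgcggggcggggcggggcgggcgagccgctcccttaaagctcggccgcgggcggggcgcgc

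In the HES1 promoter GTGGGAA begins 85 bases before the start, and a further TGGGAA begins 70 bases before it. Of the 35116 promoters in the table, each covering 250 bases before and 50 after the start, 6.25% held GTGGGAA and 24.0% held TGGGAA on either strand, and every GTGGGAA also contains a TGGGAA. A promoter with at least 2 copies of TGGGAA was found in 3.80% of the table. The table held 9 promoters of 8 members, and HES1 was the only one of these 8 genes with GTGGGAA. The shorter motif was in 2 of the 8 genes, HES1 and LFNG, with 1 copy in each LFNG promoter. HES1 was called higher, while LFNG was called lower with scaling between arrays but not without it. HES2, whose fold change was the largest of the members, held neither motif in its 300 bases. The E-box CACGTG, a class of site that HES and HEY repressors can bind, was in 7.26% of all promoters and in none of the members'. HES5, described with the other targets below, held GTGGGAA 81 bases before its start and again, on the other strand, 224 bases before it.

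Of the 13 probes, 7 were called higher and 3 lower, against 20% and 28.3% of the 24198 probes tested. Of the 10 members, 6 were higher and 2 lower in the KPNA4 knockdown at an adjusted p under 0.05 (limma, adjusted over all 19550 genes), where 20.4% of all genes tested were called higher and 29.5% lower. The receptors NOTCH2 and NOTCH3, the ligand JAG1 and the targets HES1, HES2 and HEY1 rose. The ligand DLL1 and the enzyme LFNG fell. NOTCH3, JAG1, HES1 and HES2 rose by at least 2-fold, a size reached by 5.27% of all genes tested, and DLL1 fell by at least 2-fold, as 3.23% of all genes did. The median log2 fold change was 0.53 over the 10 members and -0.10 over all genes tested. The knockdown arrays lay above both control arrays for 8 members and below both for 2, and such a separation was seen for 31.7% and 48.1% of all genes. With normexp background correction of the unprocessed intensities no gene of the 19550 was called, none of the members among them (smallest limma adjusted p = 0.423, with 1174 genes at an unadjusted p under 0.05).

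**Figure D1:**
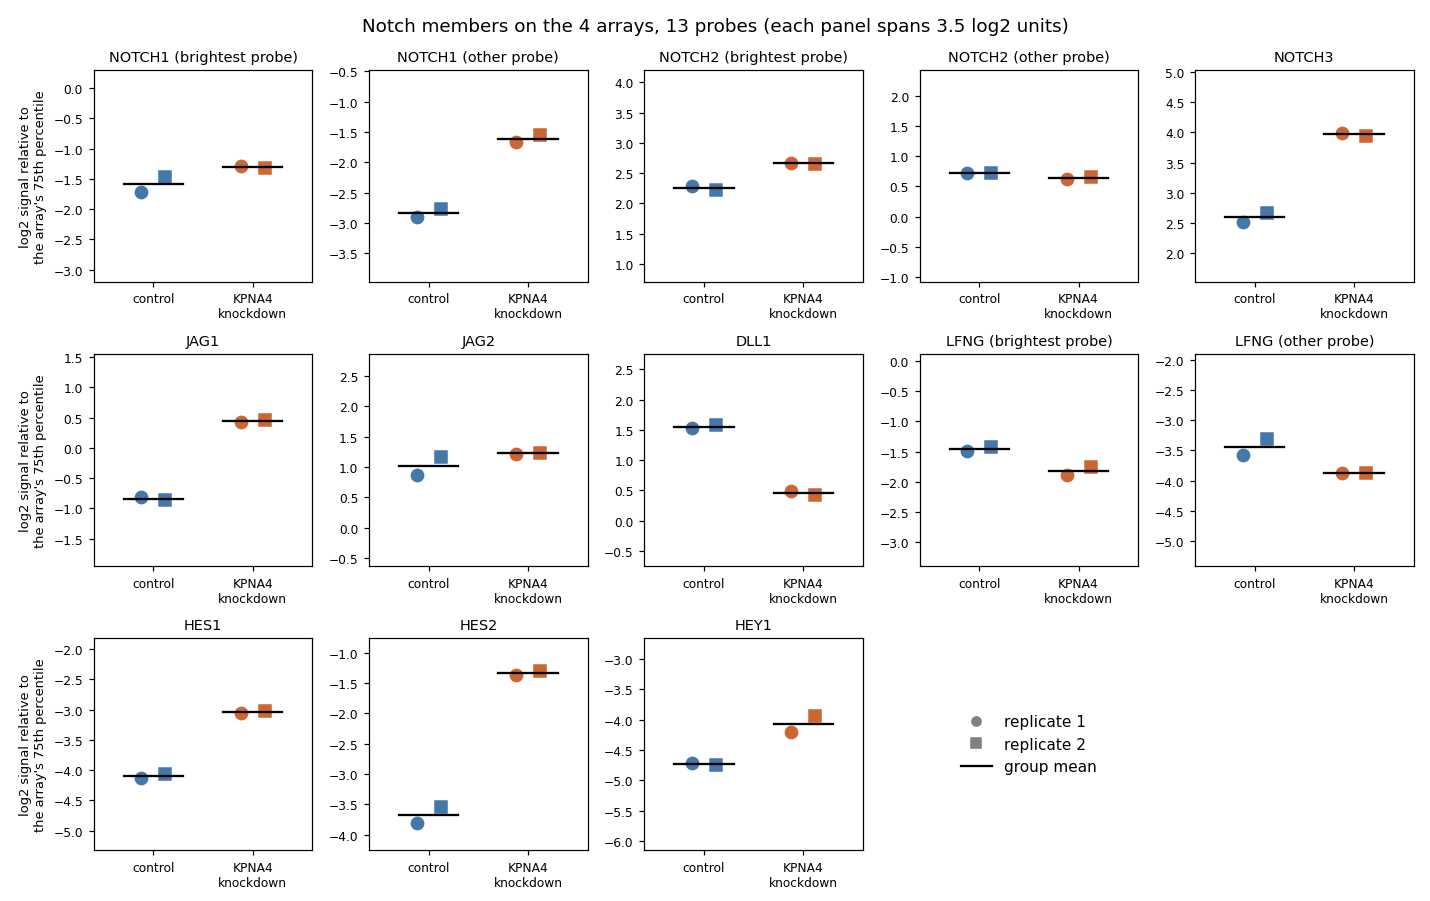
Log2 signal relative to the 75th percentile of the array (y axis) of the 13 probes of the 10 Notch members in control and KPNA4 knockdown cultures (x axis), with a circle for replicate 1, a square for replicate 2 and a bar for the group mean. Every panel spans the same number of log2 units. HES2 shows the widest gap, from -3.81 and -3.54 to -1.37 and -1.30, and DLL1 is the only member at least 2-fold lower.

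Among the receptors, NOTCH3 moved most. NOTCH3, a receptor best known from vascular smooth muscle and also made in keratinocytes, stood at 2.53 and 2.67 in the controls and at 3.99 and 3.94 after knockdown. Both knockdown arrays were therefore more than 1 log2 unit above both controls, and the log2 fold change was 1.37 ± 0.08 (SE, limma adjusted p = 0.00139), or 2.58-fold. The processed signal behind these values was 8436 and 8796 in the controls and 30818 and 32232 in the knockdown.

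The 2 probes of NOTCH1, the receptor most often linked to keratinocyte differentiation, gave different sizes of change although both are assigned to the same transcript accession. The brighter probe was at -1.72 and -1.46 in the controls and at -1.29 and -1.33 in the knockdown, a log2 difference of 0.28 ± 0.11 (SE, limma adjusted p = 0.0921, 95% confidence interval -0.01 to 0.57). The other probe was at -2.91 and -2.76 in the controls and at -1.66 and -1.55 in the knockdown, a log2 difference of 1.23 ± 0.09 (SE, limma adjusted p = 0.00197 over the 24198 probes tested). The groups did not overlap at either probe, but only the dimmer probe was called. Within an array, where no scaling between arrays enters, the dimmer probe lay 1.19 and 1.30 log2 units below the brighter one in the controls and 0.38 and 0.22 below it in the knockdown, so the gap narrowed by 0.95. The dimmer probe is printed as 10 spots on each array, and its spots ranged from -3.00 to -2.70 over the control arrays and from -1.71 to -1.45 over the knockdown arrays. The brighter probe has 1 spot per array. For the brighter probe the log2 fold change was 0.41 without control replicate 2 and 0.15 without control replicate 1. The gene passed the test with the mean over both probes (0.76, limma adjusted p = 0.00620). It also passed without scaling between arrays (0.78, limma adjusted p = 5.867e-04), which raised the log2 fold changes of all members by the same amount.

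NOTCH2, a receptor of many epithelia, also had 2 probes. The brighter was at 2.28 and 2.23 in the controls and at 2.67 and 2.64 in the knockdown, a log2 difference of 0.41 ± 0.06 (SE, limma adjusted p = 0.00969). The other, which the files assign to a different NOTCH2 transcript, was at 0.72 and 0.71 in the controls and at 0.62 and 0.65 in the knockdown, a log2 difference of -0.09 (limma adjusted p = 0.281 over all probes). Without scaling between arrays, which raised the log2 fold changes of all member probes by the same amount, this second probe turned to 0.42. It was then called higher (limma adjusted p = 0.0136 over all probes). Within an array the second probe lay 1.56 and 1.51 below the first in the controls and 2.06 and 1.99 below it in the knockdown, so the change differed by 0.49 between the 2 probes. The NOTCH2 values are uncertain in a further way, since the genome holds near-identical partial copies of NOTCH2 (the NOTCH2NL genes) that a probe may share. The call of the brighter probe was lost without KPNA4 knockdown replicate 1 (0.39, adjusted p = 0.0661) or replicate 2 (0.42, adjusted p = 0.0620), at nearly the same log2 fold change, and with the mean over both probes the log2 fold change was 0.16 (adjusted p = 0.0793).

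**Figure D2:**
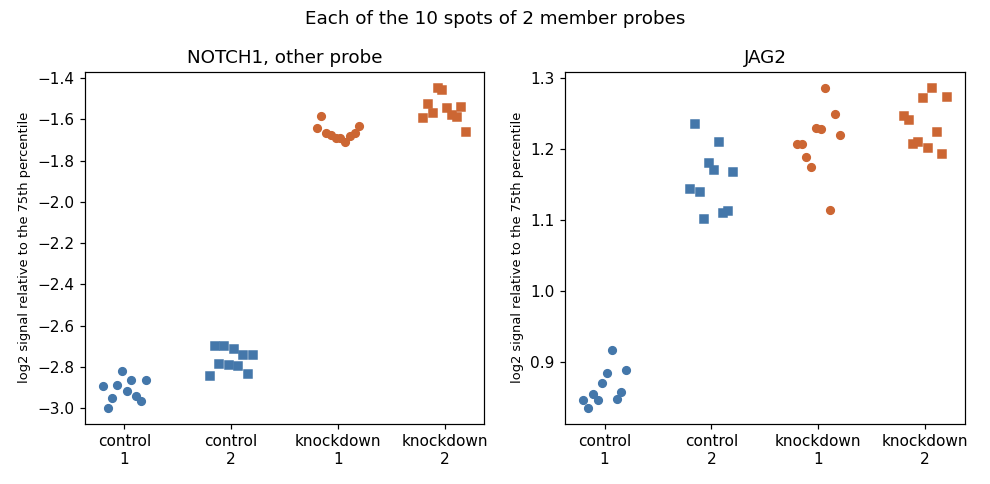
Log2 signal relative to the 75th percentile of the array (y axis) of each of the 10 spots of the NOTCH1 probe with the larger change and of the JAG2 probe on each array (x axis; circles, replicate 1; squares, replicate 2). NOTCH1 spots of the control arrays (-3.00 to -2.70) and knockdown arrays (-1.71 to -1.45) do not overlap, while JAG2 control 1 lies below the other 3 arrays. The y axes differ between the panels.

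Of the ligands, JAG1 rose and DLL1 fell. JAG1, the main Jagged ligand of squamous epithelium, was at -0.81 and -0.87 in the controls and at 0.42 and 0.46 in the knockdown, a log2 difference of 1.28 ± 0.06 (SE, limma adjusted p = 9.751e-04), or 2.43-fold. DLL1, a Delta-like ligand made by basal keratinocytes, was at 1.53 and 1.57 in the controls and at 0.49 and 0.42 in the knockdown. It fell by 1.10 ± 0.06 on the log2 scale (SE, limma adjusted p = 0.00137), to 0.466 of its control level. Replicates of both genes differed by less than 0.1 within each group. Without scaling between arrays DLL1 was still lower, with a log2 difference of -0.60 (adjusted p = 0.00168), and JAG1 still higher, with 1.78.

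JAG2, the other Jagged ligand measured, was at 0.86 and 1.16 in the controls and at 1.21 and 1.24 in the knockdown, a log2 difference of 0.21 ± 0.12 (SE, 95% confidence interval -0.11 to 0.53, limma adjusted p = 0.198). The 2 control cultures differed by more than control 2 did from either knockdown culture. The probe has 10 spots, which ranged from 0.84 to 0.92 on control 1 and from 1.10 to 1.24 on control 2, with a standard deviation over spots of 0.02 to 0.05 on the 4 arrays. Without control replicate 2 the log2 fold change was 0.36 (adjusted p = 0.0326), and without control replicate 1 it was 0.07. Without scaling between arrays it was 0.71 (adjusted p = 0.00129).

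LFNG, which modifies Notch receptors in the Golgi, was lower at both of its probes with scaling between arrays and at neither without it. The brighter probe was at -1.49 and -1.42 in the controls and at -1.88 and -1.76 in the knockdown, a log2 difference of -0.36 ± 0.07 (SE, limma adjusted p = 0.0218). The other was at -3.57 and -3.30 in the controls and at -3.88 and -3.87 in the knockdown, a log2 difference of -0.44 (adjusted p = 0.0348 over all probes). The unscaled signal of the brighter probe was 522 and 516 in the controls and 526 and 621 in the knockdown, a log2 difference of 0.14 (adjusted p = 0.337). The call was also lost with any 1 of the 4 arrays left out (adjusted p from 0.0510 to 0.114), with a log2 fold change of -0.42 to -0.30.

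**Figure D3:**
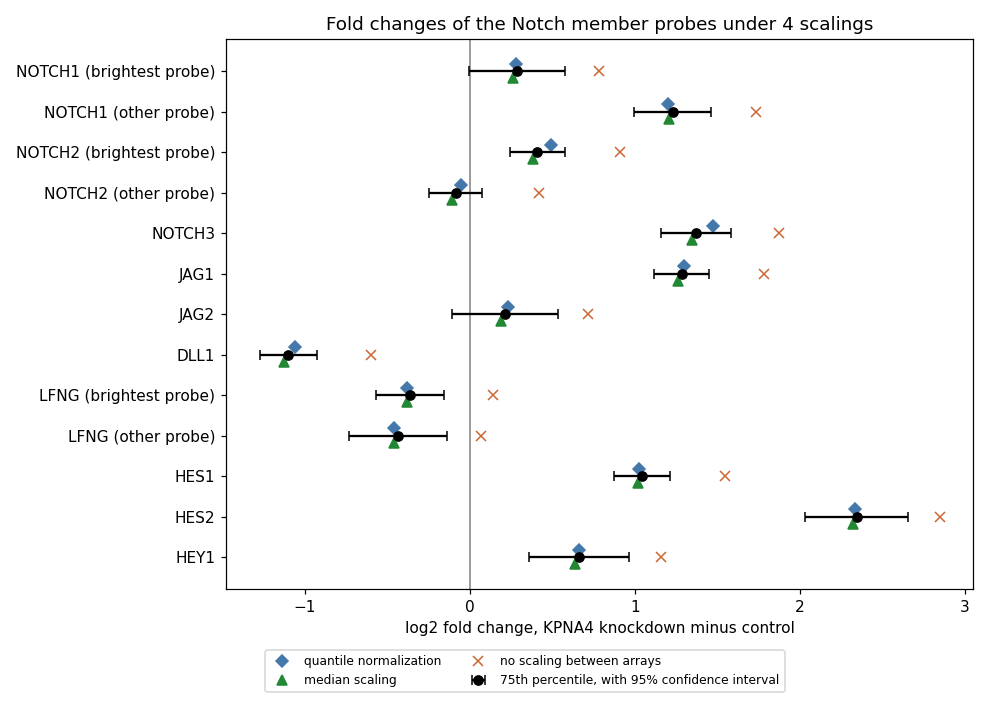
Log2 fold change, KPNA4 knockdown minus control (x axis), of the 13 probes (y axis) with 95% confidence intervals from limma (black circles) and under quantile normalization, median scaling and no scaling between arrays. The first 3 settings lie close together, and without scaling all probes move to the right, which takes both LFNG probes and the second NOTCH2 probe above 0.

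All 3 target genes among the members rose. HES2, a less studied HES repressor, was at -3.81 and -3.54 in the controls and at -1.37 and -1.30 in the knockdown, a log2 difference of 2.34 ± 0.11 (SE, limma adjusted p = 0.00103), or 5.08-fold. Its processed signal was 104 and 119 in the controls and 749 and 854 in the knockdown, and 259 of the 19550 genes tested had a fold change at least as high. HES1, the target most widely used as a readout of Notch activity, was at -4.12 and -4.06 in the controls and at -3.06 and -3.03 in the knockdown, a log2 difference of 1.04 ± 0.06 (SE, limma adjusted p = 0.00146), or 2.06-fold. HES1 was dim, with a processed signal of 84.2 and 82.8 in the controls and 232 and 257 in the knockdown, but well above background on all 4 arrays. HEY1, a related repressor, was the dimmest member, at 56.1 and 51.1 in the controls and 105 and 137 in the knockdown. Its log2 values were -4.71 and -4.76 in the controls and -4.21 and -3.94 in the knockdown, a log2 difference of 0.66 ± 0.11 (SE, limma adjusted p = 0.0135). The groups of HEY1 did not overlap, but its call was lost without control replicate 1 (0.68, adjusted p = 0.0517) or control replicate 2 (0.63, adjusted p = 0.0589).

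**Figure D4:**
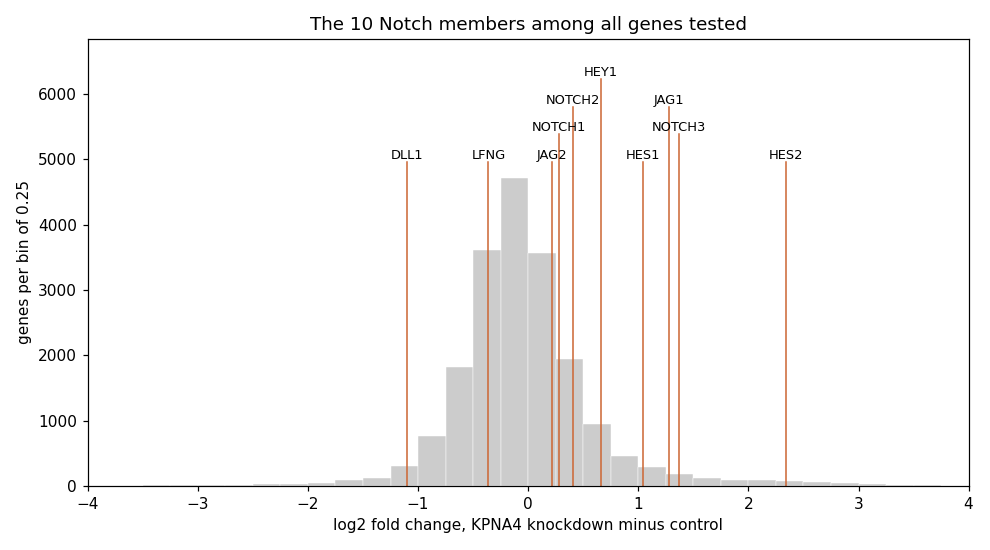
Number of genes tested (y axis) in bins of 0.25 of the log2 fold change, KPNA4 knockdown minus control (x axis), with an orange line for each of the 10 Notch members (the height of a line has no meaning). The axis ends at -4 and 4, which leaves out 13 genes below and 52 above. HES2 at 2.34 and DLL1 at -1.10 lie farthest to either side.

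The rest of the pathway was followed in 69 further genes in 10 lists by role, of which 68 had a probe and 64 were tested. Of these, 24 were higher, 15 lower and 25 did not pass the test, with a median log2 fold change of 0.08. Over all genes tested, 20.4% were higher and 29.5% lower, with a median of -0.10, and the counts of each list below are to be read against these shares. Without scaling between arrays, the log2 fold changes of these genes all rose by the same amount, so none of the 24 higher genes could change sign. Of the 15 lower genes, 8 changed sign. Of the 64, 46 were then called higher and 2 lower, against 11256 and 1047 of all 19550 genes.

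The genes that make and cut the receptor moved by less than 2-fold. NOTCH4, the receptor of endothelium, was lower, at -0.42 (adjusted p = 0.0391), but at 0.08 without scaling between arrays. Of 9 genes of receptor cleavage, 5 were higher and 1 lower. APH1A, a γ-secretase subunit, rose by 0.56 (limma adjusted p = 0.0293), and ADAM10, the protease of the ligand-induced cut, by 0.52 (adjusted p = 0.00532). Of 5 genes of receptor glycosylation, 3 were lower and none higher. They were MFNG, a fringe enzyme related to LFNG, which fell by 0.87 (adjusted p = 0.00216), EOGT, which fell by 0.98 (adjusted p = 0.0418), and POFUT1, which fell by 0.73 (adjusted p = 0.00449) at its brighter probe and was at 0.28 at the other. MFNG had log2 values of 0.05 and 0.13 in the controls and -0.78 and -0.77 in the knockdown, and without scaling it was still lower, at -0.36 (adjusted p = 0.0203). The other calls of this list were lost without scaling, EOGT at -0.48 (adjusted p = 0.0910) and POFUT1 at -0.23 (adjusted p = 0.0918). RFNG, a further fringe enzyme, and POGLUT1 were at 0.07 and -0.06 with scaling and were not called. Without scaling, which raised the log2 fold changes of the list by the same amount, they were called higher. They were then at 0.57 (adjusted p = 0.00327) and 0.44 (adjusted p = 0.00952). In that setting 1 gene of the list was lower and 2 were higher, where 11256 of all 19550 genes were higher and 1047 lower.

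Of the 5 other ligands, 4 were tested and 2 rose: DLK2 by 0.42 (limma adjusted p = 0.0229) and DLK1 by 0.33 (adjusted p = 0.0441), both non-canonical ligands. Of the 4 genes that ubiquitinate ligands, MIB1 rose by 0.52 (adjusted p = 0.00563), and MIB2 was lower, at -0.43 (adjusted p = 0.0458), but at 0.07 without scaling.

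In the nucleus, RBPJ, the DNA-binding partner of the receptor, was at 2.46 and 2.41 in the controls and at 2.44 on both knockdown arrays, a log2 difference of 0.01 ± 0.06 (SE, limma adjusted p = 0.941). Of the 9 genes of its activator complex, 4 were higher and 1 lower. KAT2B, an acetyltransferase, was at -3.44 and -3.42 in the controls and at -1.82 and -1.69 in the knockdown, a log2 difference of 1.67 ± 0.07 (SE, limma adjusted p = 8.368e-04). MAML3, a Mastermind coactivator, was at -0.91 at its brighter probe (adjusted p = 0.00815) and at 0.03 at the other. Both MAML3 probes were dim, with all arrays well above background. Of 10 corepressors tested, 4 were higher and 1 lower. TLE2, a Groucho corepressor that HES proteins recruit, was at -5.19 and -4.98 in the controls and at -2.02 and -2.21 in the knockdown, a log2 difference of 2.97 ± 0.11 (SE, limma adjusted p = 6.953e-04). TLE2 was dim in the controls, with all arrays well above background. NCOR1, a corepressor of RBPJ and of nuclear receptors, rose at all 3 of its probes, by 1.23 to 1.44. TLE2 and NCOR1 were thus the corepressors with at least a 2-fold change, and both were higher.

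Of 10 genes of receptor turnover tested, 4 were higher and 3 lower. The ubiquitin ligase LNX1, which acts on NUMB, was at -5.32 and -5.21 in the controls and at -3.74 and -3.76 in the knockdown, a log2 difference of 1.52 (limma adjusted p = 9.057e-04). DTX4, a Deltex ligase, rose by 1.20 (limma adjusted p = 0.00858). Both were dim, with all arrays well above background.

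Of 8 targets outside the 10 members 6 were tested, with 2 higher and 3 lower. Without scaling between arrays, which raised all of their log2 fold changes by the same amount, 3 were higher and 0 lower. In that setting 11256 of all 19550 genes were higher and 1047 lower. HES5 was at -3.47 and -3.46 in the controls and at -2.45 and -2.27 in the knockdown, a log2 difference of 1.11 ± 0.08 (SE, limma adjusted p = 0.00237). NRARP, a target that encodes an inhibitor of the receptor, rose by 0.77 (limma adjusted p = 0.00242) and by 0.87 at its other probe. HEYL was at -5.57 on both control arrays and at -6.37 and -6.35 in the knockdown. It fell by 0.79 (limma adjusted p = 0.00207), or by 0.29 without scaling (adjusted p = 0.0519). HEYL was dim, with all arrays well above background. HES1 and HES5, which carry GTGGGAA in the sequences above, were both higher, while HES4 (log2 fold change -0.37, limma adjusted p = 0.0183) and HEYL, whose promoters also hold it, were lower with scaling. HEY2, whose promoter holds GTGGGAA as well, was too dim to be tested. HES4 turned to 0.13 (adjusted p = 0.362) without scaling. HES6, the remaining lower target, was at -0.23 (adjusted p = 0.0363) and turned to 0.28 (adjusted p = 0.0667).

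Of 6 keratinocyte genes linked to Notch, 2 were higher and 1 lower. KRT1, a keratin of the suprabasal layers, failed the background criterion in both controls and was at least 5.15-fold higher after knockdown (limma adjusted p = 0.00330). It entered the test only through the knockdown arrays, where it is high, so its call adds no support to the count, and it was the only called gene of the 64 of which this was true. For such bounds the control level was taken, array by array, as the dimmest signal that passed the criterion, unless the probe itself read higher. IVL, which encodes involucrin of the cornified envelope, rose by 1.49 (adjusted p = 0.00209). CDKN1A, a cell cycle inhibitor induced by Notch in keratinocytes, was lower, at -0.48 (adjusted p = 0.00721) and at 0.02 without scaling.

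**Figure D5:**
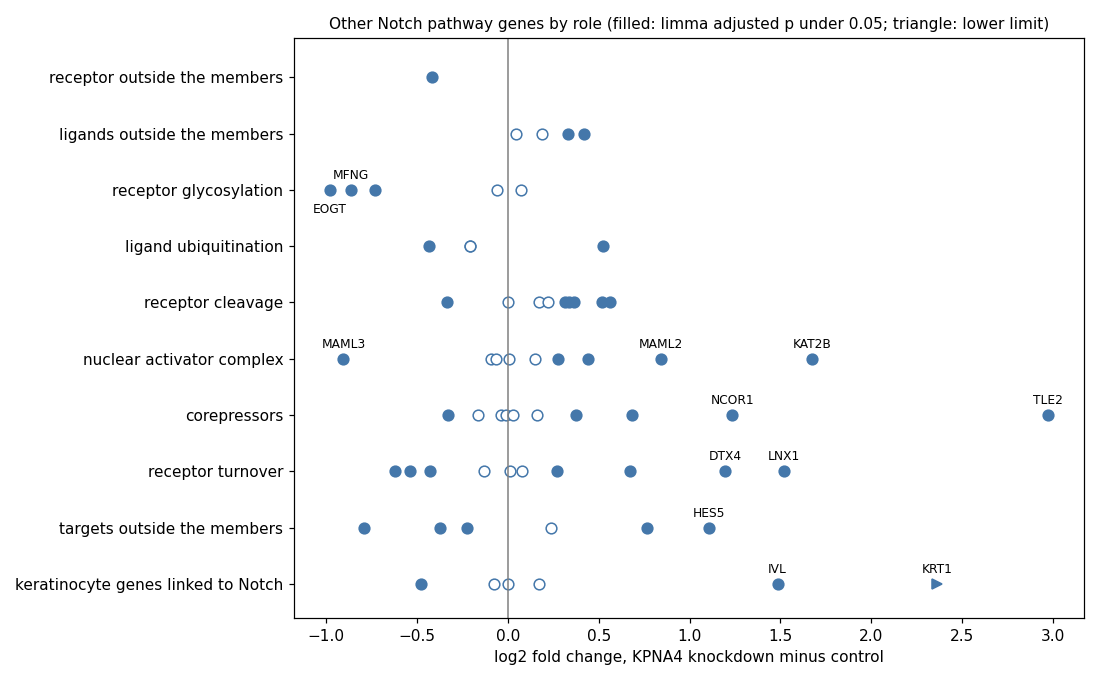
Log2 fold change, KPNA4 knockdown minus control (x axis), of the 64 other Notch pathway genes tested, in rows by role (y axis), with filled symbols for an adjusted p under 0.05 and a triangle for KRT1 at its lower limit. Genes with an absolute value of at least 0.8 are named, and TLE2 at 2.97 is the farthest from 0. With this scaling the receptor glycosylation row has called genes on the left side only. Without scaling all of these genes move to the right by the same amount, and that row has 1 lower and 2 higher.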

How the data were processed

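Total RNA of 4 cultures was hybridized to 1-color Agilent arrays. The authors scanned the arrays with Agilent Feature Extraction 11.0.1.1, and the deposited intensity per spot is its processed signal, on a linear scale. A deposited table of the series holds a ratio of that signal to about the 75th percentile of the array and served as an alternative. Here, control spots and outlier-flagged spots (333 to 355 per array) were dropped, replicate spots were averaged into 1 value per probe, and each array's 75th percentile was subtracted on the log2 scale. A probe stayed in when the software flagged it as well above background on the 2 arrays of either group, and the brightest such probe stood for its gene. Tests used limma 3.58.1 (R 4.3.3), with Benjamini-Hochberg adjustment over all 19550 genes, or over all 24198 probes for the further probes of a gene. Nothing in the labels says that cultures were separate experiments, so p-values measure only the spread between these arrays. Symbols came from RefSeq accessions (GRCh38.p14), which named 25771 of 34127 probes. The members and gene lists were chosen with earlier results of these data known. Named genes were the members, KPNA4, the called genes of each list with at least a 2-fold change or the largest changes, and the 3 genes nearest to HES2 and NOTCH3. Cell type markers were named as well. RBPJ, NRARP, HES4, HES6, POFUT1, RFNG, POGLUT1, RPS4Y1 and the motif TGGGAA were chosen after their values were seen. The alternatives were other scalings, background correction, filters, probe rules, limma settings, a replicate block and each array left out.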

Additional observations from a re-analysis of the deposited data

How the results depend on the processing

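Over 15 alternatives, 126 of 150 member values kept their direction and side of the threshold, 17 lost the call, 5 gained it and 2 reversed. Both reversals were LFNG, at 0.14 without scaling between arrays and 0.087 with normexp background correction. With normexp, 0 members were called higher and 0 lower (main 6 and 2), as were 0 genes and 0 other pathway genes in either direction. KPNA4 was then at -1.96 (limma adjusted p = 0.652, range over alternatives 3.850e-05 to 0.652). The cause was not tested. Without scaling, 1 member and 1 member probe were lower (main 2 and 3, where 28.3% of all probes were lower). In that setting 11256 genes were higher and 1047 lower (main 3981 and 5758), and 46 other pathway genes higher and 2 lower (main 24 and 15). The median of all genes moves with that setting by construction. With no filter on dim probes 1 member was lower. With each array left out in turn, 5 to 7 members were higher and 1 lower, 2200 to 3597 genes higher and 2589 to 4706 lower, and 13 to 22 other pathway genes higher and 6 to 13 lower. KPNA4 ranged from -1.97 to -1.67. The lone array of a group was then assumed to vary like the other group. Arrays with the same replicate number shared no visible deviation (correlation of deviations -0.0336 over 19538 genes). With 2 arrays per group this cannot tell whether the cultures were set up in pairs. With the replicate block 6 members were higher and 2 lower, 3269 genes higher and 4648 lower, 18 other pathway genes higher and 12 lower, and KPNA4 was at -1.82 (limma adjusted p = 0.00521). HEY1, HES1, HES2 and the second LFNG probe were the members closest to background, which limits their precision.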

Other observations

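The genes whose pattern over the 4 arrays lay nearest to HES2, by Euclidean distance between log2 values centered on their own mean over 19550 genes, were L1CAM (0.0986), C5AR1 (0.103) and CMAHP (0.109). L1CAM, a neural cell adhesion molecule, was at -6.16 and -5.92 in the controls and at -3.65 and -3.55 in the knockdown. C5AR1 was at -9.30 and -9.09 in the controls. It was dimmer there than KRT1 (-8.03 and -8.88), which failed the background criterion, so its likeness to HES2 rests partly on values near background. Nearest to NOTCH3 were RAB42 (0.0275), MDK (0.0324) and CBLN3 (0.0347). MDK, which encodes the growth factor midkine, was at 1.87 and 1.98 in the controls and at 3.30 and 3.24 in the knockdown. With 4 arrays in 2 groups, such a likeness rests mostly on the size of the difference between the groups.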
